A study of Saccharomyces cerevisiae with 9 samples.

Results

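Transcripts of 42 genes of yeast meiosis and spore formation were followed in cells that do not normally enter meiosis. The genes were chosen by their known roles, as 8 regulators, 19 recombination and synapsis genes and 15 mid or late spore genes. The choice was made with earlier results of these data known. All 42 were found by open reading frame, each with a single probe set, among the 5667 genes of the table. All groups were budding yeast with the BY4741 background, that is, haploids of mating type a in which HIS3, LEU2, MET17 and URA3 are deleted. Cultures grew at 30 °C in YPD, a rich medium, and were collected 5 days after inoculation. The non-restricted group (NR) had 2% glucose, the calorically restricted group (CR) had 0.5% glucose, and the rapamycin group (RM) had 2% glucose with 100 nM rapamycin, which blocks TOR kinase signalling, added at a time the labels do not state. There were 3 biological replicates per group, hybridised as 9 arrays. Values below are the deposited log2 signals of an Affymetrix Yeast 2.0 array, and signals of different probe sets are not comparable with each other.

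Meiosis in yeast is set off by starvation in diploids that carry both mating types. The transcription factor Ime1 joins the DNA-binding protein Ume6 at early genes, which build the double-strand break machinery and the synaptonemal complex between paired chromosomes. Ndt80 then turns on the middle genes, and the spore wall with its dityrosine layer is made last. A cell of mating type a lacks the a1-alpha2 repressor, so its Rme1 protein keeps IME1 low.

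The groups differed in spread, and an NR array stood apart. The median standard deviation within a group over all probe sets was 0.29 in NR, 0.06 in CR and 0.16 in RM on the log2 scale. NR replicate 3 had a mean Pearson r of 0.75 with the CR arrays, against 0.86 for NR replicate 1 and 0.83 for NR replicate 2. The summed signal of 7 mating type a genes ranged from 10.1 to 12.1 in NR, from 9.46 to 9.57 in CR and from 10.5 to 10.98 in RM on the log2 scale, and within NR all 7 were highest on replicate 3. Of these 7 genes, 4 were lower in CR than in NR (AGA2, MFA2, BAR1 and STE6), where 20% of all probe sets were lower. Of 4 mating type alpha genes, STE3 was higher and MF(ALPHA)1 lower in CR than in NR. SAG1 read 6.69 to 6.86 in NR, 7.14 to 7.17 in CR and 7.70 to 8.28 in RM. It was 1.22 higher in RM than in NR on the log2 scale (limma adjusted p = 0.000818), where 3.97% of all probe sets were higher. MF(ALPHA)1 read 6.62 on NR replicate 3 and 3.50 on the other NR arrays. Of 7 haploid-specific genes, STE18 was higher and GPA1, FUS3 and RME1 lower in CR than in NR. The part of these marker genes in the results below was not tested. The probe sets of the deleted genes LEU2, MET17 and URA3 lay between 0.71 and 2.01 on every array. The probe set of HIS3, whose allele in this background is known to be a partial deletion, read 5.38 to 6.83, and whether its probes lie inside the deleted stretch is not stated in the labels or files. Since this is bulk RNA, fewer cells with a transcript and less of it per cell cannot be told apart.

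A gene is called changed here at 2-fold or more with a Benjamini-Hochberg adjusted p under 0.05 in a limma fit over all 5716 probe sets. Low glucose changed 22 of the 42 genes against NR, 12 higher and 10 lower, where 37.8% of all probe sets were called, 17.7% higher and 20% lower. Rapamycin changed 10 genes against NR, 8 higher and 2 lower, where 8.64% of all probe sets were called, 3.97% higher and 4.67% lower. Directly between CR and RM, 8 genes were higher in CR and 9 lower, where 26.1% of all probe sets were called, 12.6% higher and 13.5% lower. Without NR replicate 3 the rapamycin calls became 5 higher and 5 lower, where 6.63% of all probe sets were called, 3.08% higher and 3.55% lower. In CR over NR that omission gave 11 higher and 12 lower, where 34.2% of all probe sets were called, 15.6% higher and 18.7% lower. In CR over RM it gave 8 higher and 9 lower, where 26.5% were called. The 3 comparisons share arrays. The median log2 fold change of the 42 genes was 0.03 in CR over NR and 0.20 in RM over NR, beside 0.02 and -0.05 over all probe sets.

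**Figure D1:**
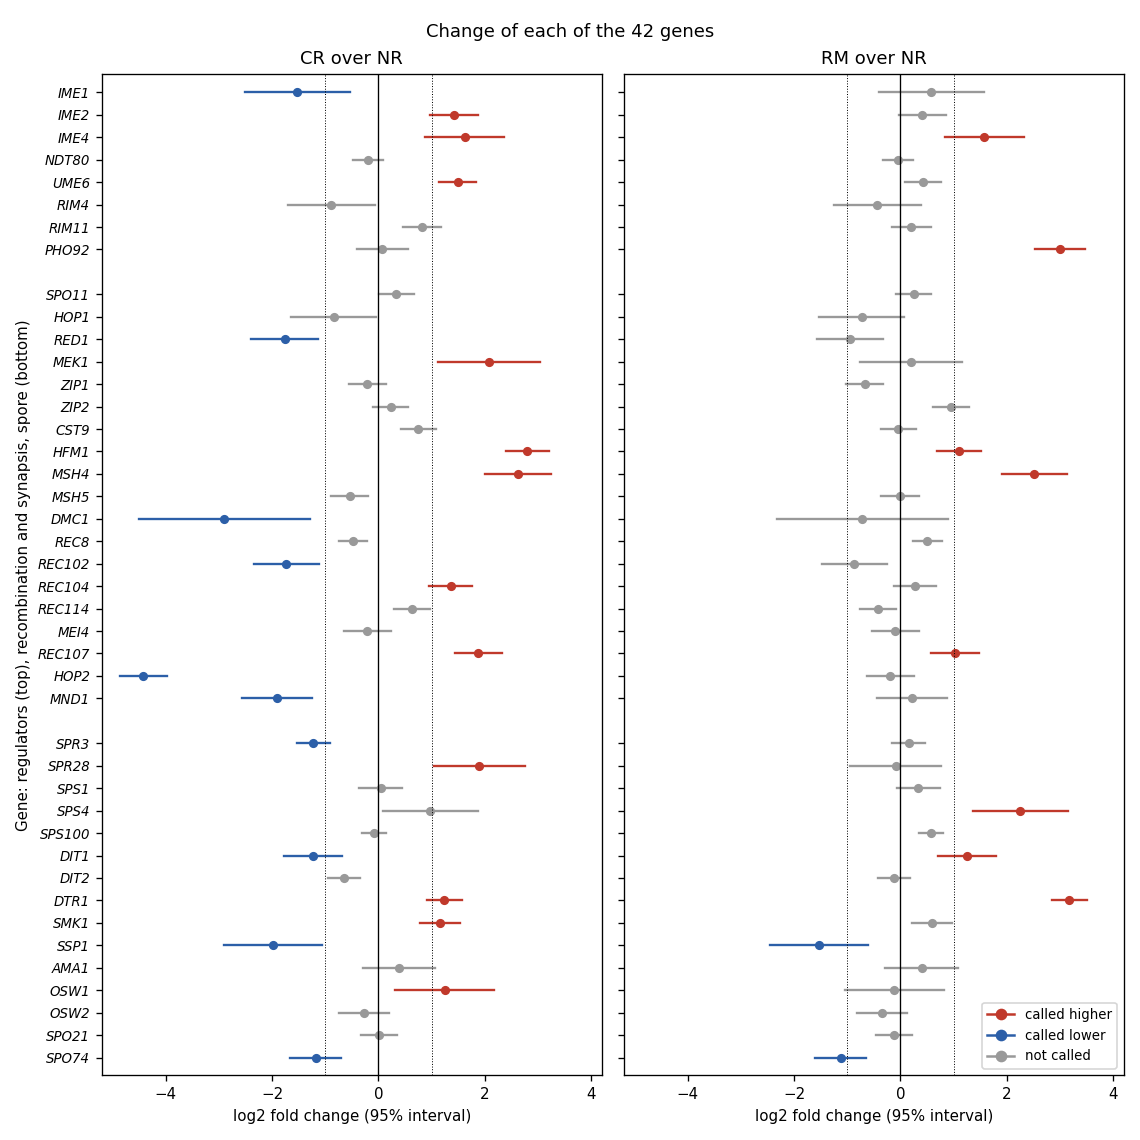
Log2 fold change of each of the 42 genes with its 95% interval from the limma fit, for CR over NR on the left and RM over NR on the right, in stage order from the top (red called higher, blue called lower, grey not called). Dotted lines mark a 2-fold change; calls of both directions stand in every stage under CR, from -4.42 for HOP2 to 2.80 for HFM1, while under RM the largest changes are DTR1 at 3.18, PHO92 at 3.0 and MSH4 at 2.52.

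Among the 8 regulators, low glucose was accompanied by a lower signal of IME1 and a higher signal of IME2, IME4 and UME6. Rapamycin was accompanied by a higher signal of PHO92 and IME4. Whether the IME4 signal is sense or antisense RNA is not known. IME1 (YJR094C), the inducer of the whole program, read 8.60, 7.69 and 6.98 in the NR arrays, 6.23, 6.24 and 6.23 in CR and 8.39, 9.09 and 7.54 in RM. All CR arrays lay below all others, and the NR and RM arrays overlapped. The log2 fold change was -1.53 in CR over NR (95% interval -2.51 to -0.54, adjusted p = 0.0113) and -2.11 in CR over RM (adjusted p = 0.00261). For the first of these, the authors' deposited table put p at 0.0628. RM over NR was 0.58, with an interval of -0.40 to 1.56.

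IME2 (YJL106W), the kinase that Ime1 induces, moved the other way. It read 5.51, 5.23 and 4.78 in NR, 6.71, 6.60 and 6.48 in CR and 5.49, 5.86 and 5.40 in RM, so that the CR arrays were the highest and the other groups overlapped. It rose by a log2 fold change of 1.42 in CR over NR (0.98 to 1.86, adjusted p = 0.000171). In CR over RM the value was 1.01, just past the 2-fold limit, and it was 0.95 when each array was centred on its median and 0.92 to 0.97 without CR replicate 1, RM replicate 1 or RM replicate 3. RM over NR was 0.41 (adjusted p = 0.13).

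UME6 (YDR207C) encodes the protein that represses early meiotic genes in growing cells and serves Ime1 in meiosis. Its signal was 7.33, 7.03 and 6.71 in NR, 8.46, 8.57 and 8.51 in CR and 7.41, 7.48 and 7.46 in RM. CR stood above both other groups with no overlap, at a log2 fold change of 1.49 over NR (1.14 to 1.84, adjusted p = 2.91e-05) and 1.06 over RM. RIM11 (YMR139W), a glycogen synthase kinase 3 homologue that phosphorylates Ime1 and Ume6, read 8.26, 8.51 and 7.86 in NR, 9.01, 9.06 and 9.02 in CR and 8.32, 8.43 and 8.49 in RM. Its log2 fold change of 0.82 in CR over NR had an adjusted p of 0.00146 but lay under the 2-fold limit.

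IME4 (YGL192W) and PHO92 (YDR374C) belong to the N6-methyladenosine pathway of meiotic messenger RNA, IME4 as the methyltransferase and PHO92 as the protein that reads the mark. IME4 read 4.66, 3.25 and 3.45 in NR, 5.50, 5.32 and 5.40 in CR and 5.45, 5.65 and 4.99 in RM. Both treated groups lay above NR, with log2 fold changes of 1.62 for CR (adjusted p = 0.00184) and 1.58 for RM (adjusted p = 0.00767), and they differed from each other by 0.04 (-0.70 to 0.79). In haploids an antisense transcript crosses IME4. The strand that the probe set reads is not stated in the labels or files, so the sense and antisense RNAs cannot be told apart.

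PHO92 separated the treatments most among the regulators. It read 6.0, 5.47 and 5.07 in NR, 5.73, 5.52 and 5.49 in CR and 8.54, 8.63 and 8.37 in RM. The RM arrays stood far above the others, and the NR and CR arrays overlapped. Rapamycin raised it 8.0-fold over NR (log2 fold change 3.0, 2.52 to 3.48, adjusted p = 5.91e-05). CR over RM was -2.93 (adjusted p = 6.3e-06), and CR over NR was 0.07 (-0.41 to 0.55). Of the 3 writer partners of Ime4, KAR4 was lower in CR than in NR, at -2.61, and in RM, at -1.42. MUM2 stood at 0.17 in CR and 0.11 in RM, and SLZ1 at 0.42 and 0.73, and neither gene was called.

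The middle-phase activator NDT80 (YHR124W) was not called in any comparison. It read 4.76, 4.70 and 4.75 in NR, 4.75, 4.38 and 4.46 in CR and 4.62, 4.76 and 4.69 in RM, and the groups overlapped. The intervals of its log2 fold change were -0.49 to 0.08 in CR over NR and -0.33 to 0.23 in RM over NR. RIM4 (YHL024W), an RNA-binding repressor of translation in meiosis, read 9.52, 9.38 and 7.88 in NR, 7.96, 8.10 and 8.06 in CR and 8.44, 8.66 and 8.36 in RM. NR replicate 3 alone lay below the CR arrays. CR over NR was -0.89 (adjusted p = 0.0527), and without that array it was -1.41 (adjusted p = 1.33e-05).

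**Figure D2:**
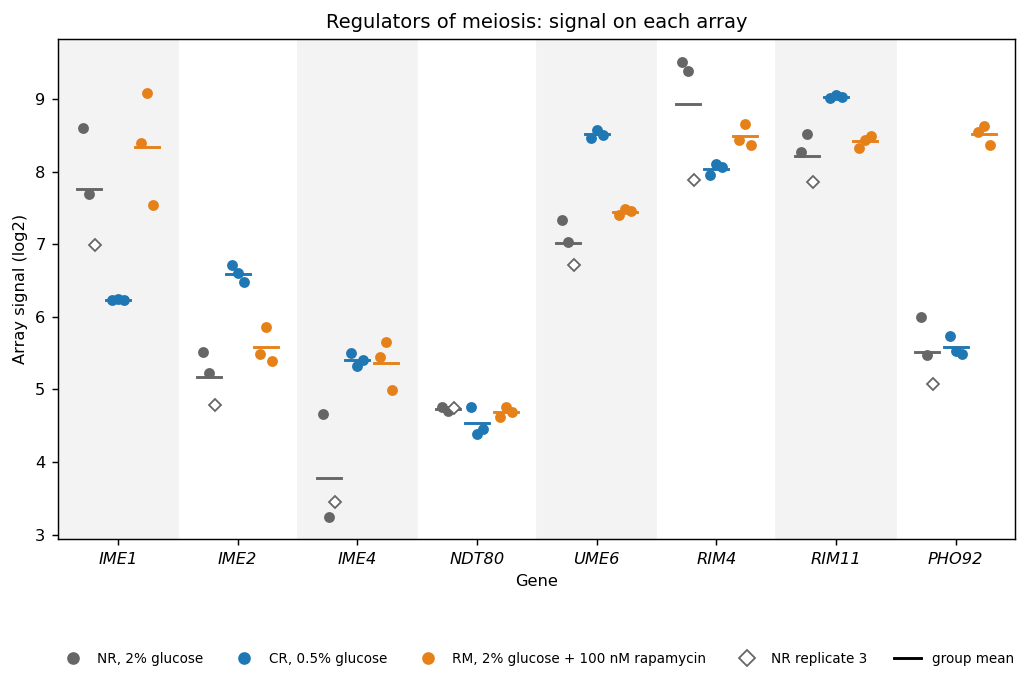
Log2 array signal of the 8 regulators on each of the 9 arrays (points, NR replicate 3 as an open diamond) with group means (bars). The CR points of IME1 lie below all others at 6.23 to 6.24, and the RM points of PHO92 lie between 8.37 and 8.63, above the NR and CR points.

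Of 12 genes that hold the meiotic program off in growing cells, 3 were higher and 2 lower in CR than in NR, with a list median of 0.43. That is 41.7% of the list, near the 37.8% of all probe sets. SUM1, which represses middle genes at the sites that Ndt80 uses, was 1.88 higher on the log2 scale, its partner deacetylase HST1 1.47 higher and the chromatin remodeller ISW2 1.37 higher. RFM1, which links Sum1 to Hst1, stood at 0.09. RME1, the repressor of IME1 in haploids, read 8.07, 8.43 and 9.09 in NR, 6.14, 6.13 and 6.12 in CR and 8.21, 8.93 and 7.83 in RM. It was 5.28-fold lower in CR than in NR (adjusted p = 9.56e-05) and, like IME1, lowest on the CR arrays. The co-repressor gene CYC8 was 2.70-fold lower in CR. In RM over NR, limma and the call on the authors' deposited table each called 0 of the 12 genes. Over all probe sets they called 8.64% and 7.68%. In limma, 6 of the 12 had an unadjusted p under 0.05. The share of all probe sets under that threshold was not computed, but 37.1% passed an adjusted p under 0.05 with no fold limit.

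Of 14 genes that signal to IME1 from nutrients, pH and stress, 7 were higher and 1 lower in CR than in NR, with a list median of 1.03. That is 57.1% of the list beside 37.8% of all probe sets, of which 17.7% were higher and 20% lower. The largest rises were RIM13, the protease that activates Rim101, at 1.74, the stress activator MSN2 at 1.63 and IGO1, a target of the kinase Rim15, at 1.46. MSN4, the paralogue of MSN2, was the lower gene, at -4.16. Rapamycin raised DFG16, a membrane sensor of the Rim101 pathway, by 1.37, and no other gene of this list was called in RM over NR. That is 7.14% of the list, beside 8.64% of all probe sets. In limma, 7 of the 14 genes had an unadjusted p under 0.05 there. Again the share of all probe sets under that threshold was not computed, and 37.1% passed an adjusted p under 0.05 with no fold limit. RIM15 itself stood at 0.09 in CR and 0.01 in RM.

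The 19 recombination and synapsis genes held the largest changes under low glucose. Of them, 5 were higher and 5 lower than in NR, where 17.7% of all probe sets were higher and 20% lower. HOP2 (YGL033W) had the largest measured fall. Its protein works as a heterodimer with Mnd1 to help the recombinase Dmc1 invade the homologous chromosome. HOP2 read 6.0, 6.19 and 5.90 in NR, 1.85, 1.63 and 1.35 in CR and 5.64, 6.22 and 5.64 in RM. The NR and RM arrays overlapped, and the CR arrays lay far below them. The measured signal was 21.4-fold lower in CR than in NR (log2 fold change -4.42, -4.86 to -3.98, adjusted p = 4.55e-07) and 18.8-fold lower than in RM. The CR signals lay within the range of 0.71 to 2.01 read for the deleted genes LEU2, MET17 and URA3, though different probe sets are not comparable. The files carry no detection call, so whether the dim signals of HOP2 in CR, or of other dim genes, lay above background is not known, and their folds are those of the measured signals.

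MND1 (YGL183C) and DMC1 (YER179W) were lower on the CR arrays too. MND1 read 4.69, 4.16 and 3.89 in NR, 2.23, 2.41 and 2.37 in CR and 4.30, 5.11 and 3.97 in RM, again with CR apart from overlapping NR and RM arrays. It fell by 1.91 on the log2 scale in CR over NR (adjusted p = 0.000308). DMC1 read 7.20, 9.14 and 5.44 in NR, 4.27, 4.21 and 4.6 in CR and 6.43, 6.50 and 6.70 in RM. Its NR arrays spread more widely than those of any other of the 42 genes, with a standard deviation of 1.85. CR over NR was -2.90 with a wide interval of -4.51 to -1.29 (adjusted p = 0.0052). The CR over RM value of -2.18 (adjusted p = 0.0261) lost its call when any CR or RM array other than CR replicate 3 was left out, where adjusted p-values were 0.0597 to 0.0723, and the authors' deposited table put its p at 0.105. The fit pools the spread over all groups, so the wide NR spread entered the limma p-values. The standard deviations of DMC1 were 0.21 in CR and 0.14 in RM, and those arrays did not overlap. The call held in a fit of only those 2 groups, which was added after the data were seen. It was lost after quantile normalization of the deposited values (-1.98, adjusted p = 0.0504). Without NR replicate 3, RM over NR was -1.63 (adjusted p = 0.0224).

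Of the 6 genes of the double-strand break machinery, 2 rose and 1 fell in CR over NR, where 17.7% of all probe sets rose and 20% fell. SPO11 (YHL022C), which cuts the DNA, had a log2 fold change of 0.33 in CR over NR (adjusted p = 0.0679). REC102 (YLR329W) and REC104 (YHR157W) encode partners in the core complex around Spo11. REC102 read 3.91, 4.98 and 4.66 in NR, 2.65, 2.96 and 2.76 in CR and 3.67, 3.31 and 3.98 in RM, and fell by 1.73 in CR over NR (-2.34 to -1.12, adjusted p = 0.000353). Its RM over NR value was -0.87 (adjusted p = 0.0338), past 2-fold without NR replicate 1, at -1.17, or RM replicate 3, at -1.03. REC104 read 4.98, 4.80 and 4.36 in NR, 6.15, 6.04 and 6.03 in CR and 4.97, 4.77 and 5.22 in RM, and rose by 1.36 (0.96 to 1.76, adjusted p = 0.00012). For REC102 the CR arrays were the lowest, and for REC104 they were the highest.

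REC107 (MER2, YJR021C), REC114 (YMR133W) and MEI4 (YER044C-A) form the accessory complex that places breaks on chromosome axes. REC107 read 7.16, 6.92 and 6.29 in NR, 8.62, 8.68 and 8.71 in CR and 7.74, 7.94 and 7.78 in RM, with no overlap between any groups. It rose by 1.88 in CR over NR (adjusted p = 3.48e-05) and by 1.03 in RM over NR (adjusted p = 0.00547), the latter becoming 0.78 without NR replicate 3 and 0.97 without RM replicate 2, both under the 2-fold limit. REC114 read 2.04, 1.90 and 2.02 in NR, 2.48, 2.95 and 2.41 in CR and 1.58, 1.54 and 1.59 in RM. The order of its groups was CR, NR and RM without overlap, and CR over RM was 1.04 (adjusted p = 0.000318), which was 0.87 without CR replicate 2 and 0.99 with each array centred on its median. CR over NR was 0.63 (adjusted p = 0.0045), and 1.04 after quantile normalization of the deposited values. The RM signals of REC114 lay within the 0.71 to 2.01 read for the deleted genes LEU2, MET17 and URA3, and its NR signals within or close to it. Whether these signals lay above background is not known, and different probe sets are not comparable. MEI4 was not called, with intervals of -0.65 to 0.23 in CR over NR and -0.54 to 0.34 in RM over NR.

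Axis genes also split under low glucose. Red1 and Hop1 coat the chromosome axis, and the kinase Mek1 acts there to steer repair to the homologue. RED1 (YLR263W) read 7.00, 6.0 and 5.75 in NR, 4.55, 4.35 and 4.55 in CR and 5.19, 5.30 and 5.42 in RM, and fell by 1.76 in CR over NR (adjusted p = 0.000368). MEK1 (YOR351C) read 5.11, 4.59 and 3.13 in NR, 6.37, 6.36 and 6.36 in CR and 4.34, 4.90 and 4.18 in RM, and rose 4.24-fold (log2 fold change 2.08, adjusted p = 0.0018). Both genes had CR apart from the other groups, RED1 below and MEK1 above. RED1 in RM over NR was -0.95 (adjusted p = 0.0272), under the 2-fold limit, and -1.20 without NR replicate 3 or -1.08 without NR replicate 2, both called. HOP1 (YIL072W) was -0.84 in CR and -0.73 in RM, neither called. Without NR replicate 3 these values were -1.34 (adjusted p = 6.66e-05) and -1.22 (adjusted p = 0.000727). The cohesin REC8 (YPR007C), which holds sister chromatids, stood at -0.47 in CR over NR and 0.51 in RM over NR, both under the 2-fold limit.

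HFM1 (YGL251C) and MSH4 (YFL003C), whose products stabilise crossover intermediates, rose under both treatments. HFM1, the helicase also known as Mer3, read 4.10, 4.48 and 3.92 in NR, 6.96, 6.96 and 6.97 in CR and 5.24, 5.57 and 5.00 in RM. The groups were ordered CR, RM and NR with no overlap, at 6.96-fold for CR over NR (log2 fold change 2.80, adjusted p = 2.41e-06) and 2.15-fold for RM over NR (1.10, adjusted p = 0.00281). The RM change was 0.98 without NR replicate 3 and 0.95 without RM replicate 2, both under the 2-fold limit. CR over RM was 1.69 (adjusted p = 5.3e-05).

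MSH4 encodes the partner of Msh5 in a clamp on joint molecules. It read 5.64, 4.75 and 4.74 in NR, 7.72, 7.67 and 7.62 in CR and 7.67, 7.93 and 7.08 in RM. Both treated groups lay above NR and overlapped each other. The gene rose 6.18-fold in CR (adjusted p = 3.09e-05) and 5.73-fold in RM (adjusted p = 0.000482), and CR over RM was 0.11 on the log2 scale (-0.51 to 0.73). MSH5 (YDL154W) did not follow, at -0.54 in CR over NR (adjusted p = 0.0122), under the 2-fold limit, and -0.0047 in RM over NR (-0.36 to 0.35). Of the other synapsis genes, CST9 (ZIP3, YLR394W), a SUMO ligase at crossover sites, was 0.75 in CR over NR. ZIP1 (YDR285W), the central filament of the synaptonemal complex, was -0.67 in RM over NR, and ZIP2 (YGL249W), which helps Zip1 assemble, was 0.96 in RM over NR. These 3 values had adjusted p-values of 0.00128, 0.0109 and 0.00234, and none reached the 2-fold limit. The ZIP2 value became 1.17 after quantile normalization of the deposited values. ZIP2, like IME4, has an antisense transcript in haploids.

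**Figure D3:**
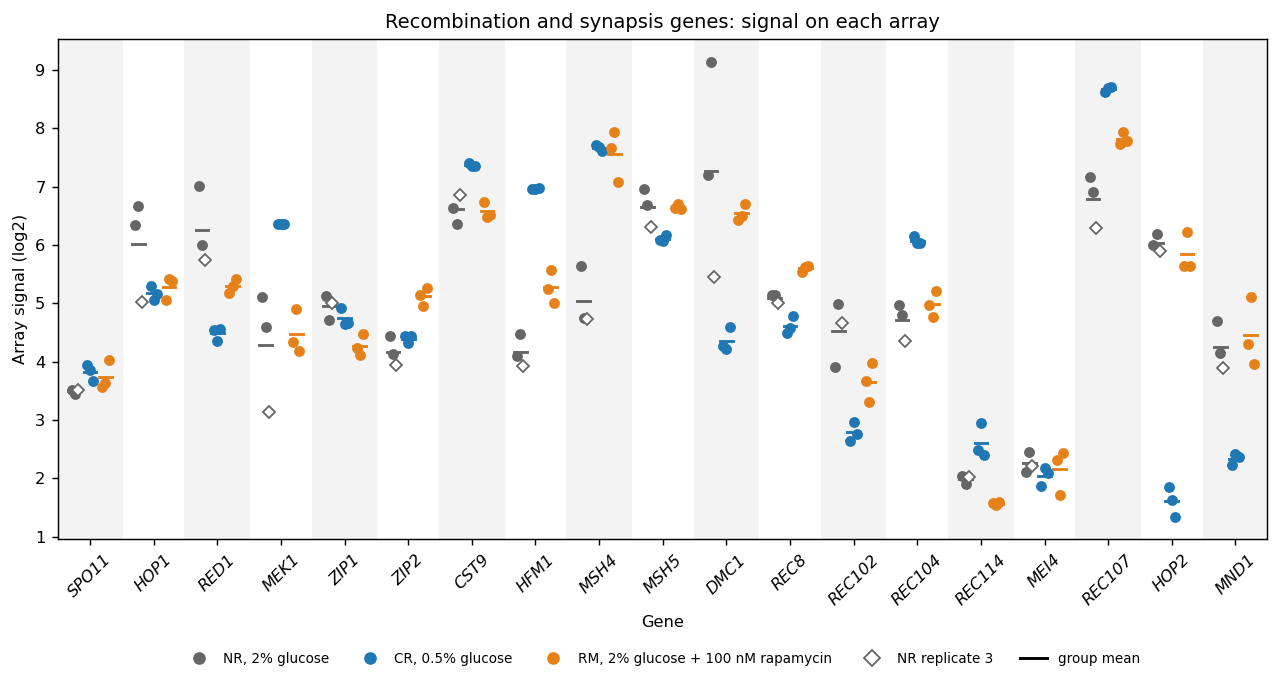
Log2 array signal of the 19 recombination and synapsis genes on each of the 9 arrays (points, NR replicate 3 as an open diamond) with group means (bars). CR points lie lowest for HOP2 (1.35 to 1.85) and MND1 and highest for HFM1, MEK1 and REC107, and the NR points of DMC1 span 5.44 to 9.14.

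Of 13 other genes of the same stage, 12 were measured. In CR over NR 1 was higher and 2 were lower, 25% of them beside 37.8% of all probe sets. In RM over NR 2 were higher and 3 lower, 41.7% beside 8.64%. CSM4, which moves telomeres along the nuclear envelope, was higher in both, at 1.64 and 1.63. SAE3, which loads Dmc1, was lower in both, at -1.61 and -1.39, and MER1, a splicing activator of meiotic transcripts, at -1.12 and -1.07. NDJ1, a meiotic telomere protein, was 1.27 higher in RM, and ECM11, a part of the synaptonemal complex, fell by 1.03 there. Apart from CSM4, these called genes were dim. SAE3 read 0.71 to 0.91 in CR and 1.02 on every RM array. MER1 read 1.80 to 2.13 in CR and 1.98 to 2.13 in RM, ECM11 1.5 to 1.8 in RM and NDJ1 1.90 to 2.38 in NR. The deleted genes LEU2, MET17 and URA3 read 0.71 to 2.01, so whether these signals lay above background is not known.

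Of the 15 mid and late spore genes, 4 were higher and 4 lower in CR than in NR, beside 17.7% and 20% of all probe sets. In RM over NR, 3 were higher and 2 lower, beside 3.97% and 4.67%. Dityrosine is made from tyrosine by Dit1 and Dit2 and its precursor is carried out of the cell by Dtr1, to form the outermost spore wall. DTR1 (YBR180W) carried the same value of 2.20 on all 3 NR arrays, to every deposited digit, and read 3.26, 3.53 and 3.53 in CR and 5.39, 5.13 and 5.62 in RM. The groups were ordered RM, CR and NR without overlap. The gene was 9.04-fold higher in RM than in NR (log2 fold change 3.18, 2.85 to 3.50, adjusted p = 7.12e-06) and 2.36-fold higher in CR (adjusted p = 5.8e-05), and CR over RM was -1.94 (adjusted p = 7.23e-06).

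DIT1 (YDR403W) was changed in opposite directions by the treatments. It read 5.39, 5.45 and 4.54 in NR, 4.10, 3.59 and 3.99 in CR and 6.24, 6.44 and 6.48 in RM, again with no overlap. CR over NR was -1.24 (adjusted p = 0.00143), RM over NR was 1.26 (adjusted p = 0.00534) and CR over RM was -2.50 (-3.04 to -1.95, adjusted p = 3.1e-05). Without NR replicate 3, RM over NR was 0.97, under the 2-fold limit, and CR over NR was -0.79 after quantile normalization of the deposited values. DIT2 (YDR402C), the adjacent gene transcribed away from DIT1, was -0.65 in CR over NR (adjusted p = 0.00206) and -0.13 in RM over NR (-0.43 to 0.18), neither past the limit.

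SPS4 (YOR313C), a sporulation-specific gene, was high on the RM arrays. It read 5.94, 4.45 and 4.05 in NR, 5.85, 5.77 and 5.74 in CR and 7.24, 6.87 and 7.10 in RM, and the NR and CR arrays overlapped. It was 4.78-fold higher in RM than in NR (adjusted p = 0.0036). CR over NR was 0.97 (adjusted p = 0.0517), and 1.54 without NR replicate 1 (adjusted p = 5.26e-05). CR over RM was -1.28 (adjusted p = 0.0203), a call that was lost without CR replicate 2 or 3 or RM replicate 1 or 3 (adjusted p = 0.0529, 0.054, 0.066 and 0.0552). The authors' deposited table put its p at 0.0811. The limma p-values take in the NR spread, with a standard deviation of 1.0 against 0.05 in CR and 0.19 in RM. The CR and RM arrays did not overlap, and the call held in a fit of only those 2 groups, which was added after the data were seen. SPS100 (YHR139C), needed for spore wall maturation, had a narrow spread and read 12.61 to 12.69 in RM, above 12.03 to 12.16 in NR. Its log2 fold change of 0.58 in RM over NR (adjusted p = 0.00352) lay under the 2-fold limit.

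The sporulation septins SPR3 (YGR059W) and SPR28 (YDR218C), which lie along the growing prospore membrane, went opposite ways under low glucose. SPR3 read 5.04, 5.33 and 5.29 in NR, 4.08, 4.09 and 3.81 in CR and 5.44, 5.23 and 5.48 in RM. SPR28 read 5.30, 4.04 and 3.69 in NR, 6.28, 6.16 and 6.29 in CR and 4.63, 3.71 and 4.43 in RM. In both, NR and RM overlapped and CR stood apart, below for SPR3 and above for SPR28. SPR3 fell by 1.23 (adjusted p = 4.7e-05) and SPR28 rose by 1.90 (adjusted p = 0.00165) in CR over NR, and the SPR3 value was -0.81 after quantile normalization of the deposited values.

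SSP1 (YHR184W) and SPO74 (YGL170C) were the genes lower in both treatments. Ssp1 coats the leading edge of the prospore membrane, and Spo74 sits with Spo21 in the outer plaque of the spindle pole from which that membrane grows. SSP1 read 3.66, 4.32 and 4.86 in NR, 2.04, 2.18 and 2.67 in CR and 2.92, 1.88 and 3.46 in RM. SPO74 read 4.07, 4.09 and 3.70 in NR, 2.70, 2.95 and 2.66 in CR and 2.75, 2.45 and 3.28 in RM. In both genes the CR and RM arrays overlapped and lay below NR. The log2 fold changes of SSP1 were -1.98 in CR (adjusted p = 0.00197) and -1.53 in RM (adjusted p = 0.0202), and those of SPO74 were -1.18 (adjusted p = 0.000808) and -1.13 (adjusted p = 0.00473). Neither RM call held without RM replicate 2, where SSP1 was -1.09 (adjusted p = 0.058) and SPO74 was -0.94. The SSP1 call in RM was also lost without NR replicate 2 (adjusted p = 0.0547) and in a fit of only the RM and NR arrays (adjusted p = 0.0525). That fit was added after the data were seen. The SPO74 values were -0.64 in CR and -0.91 in RM after quantile normalization. SPO21 (YOL091W) was not called, with intervals of -0.34 to 0.35 in CR over NR and -0.47 to 0.22 in RM over NR.

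SMK1 (YPR054W), the kinase that orders spore wall assembly, read 3.42, 3.55 and 3.47 in NR, 4.72, 4.33 and 4.86 in CR and 3.93, 4.31 and 3.98 in RM. It rose by 1.16 in CR over NR (adjusted p = 0.000198), while its RM value of 0.59 (adjusted p = 0.0225) lay under the 2-fold limit. OSW1 (YOR255W), an outer spore wall gene, read 4.34, 2.93 and 2.93 in NR, 4.53, 4.83 and 4.58 in CR and 3.51, 2.56 and 3.80 in RM. Its CR arrays were the highest, by a small margin over NR replicate 1. The log2 fold change was 1.25 in CR over NR (adjusted p = 0.0222) and 1.36 in CR over RM (adjusted p = 0.0185), and the authors' deposited table put their p at 0.102 and 0.0763. Leaving out NR replicate 2 or 3 gave 1.01, with adjusted p = 0.084 and 0.0667, and leaving out CR replicate 2 gave 1.15 (adjusted p = 0.066). The CR over RM call was lost without CR replicate 2 (1.27, adjusted p = 0.0588) or RM replicate 2 (0.99, adjusted p = 0.0679). The kinase SPS1 (YDR523C), the anaphase-promoting complex activator AMA1 (YGR225W) and the wall gene OSW2 (YLR054C) were called in no comparison.

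**Figure D4:**
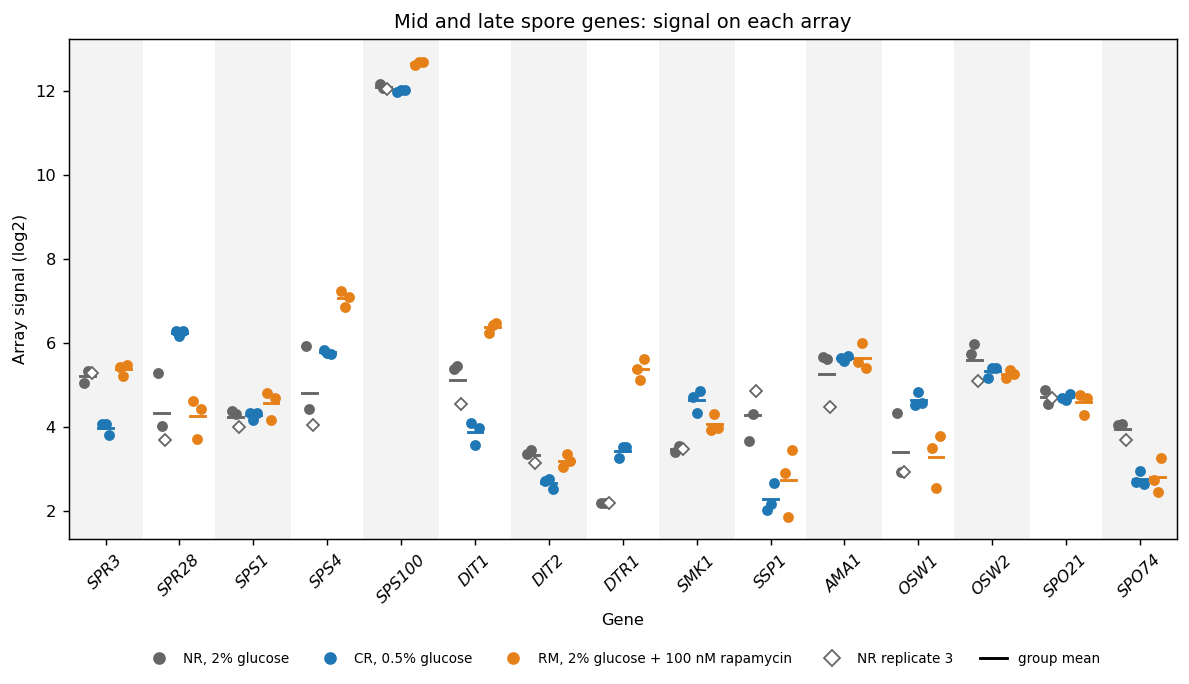
Log2 array signal of the 15 mid and late spore genes on each of the 9 arrays (points, NR replicate 3 as an open diamond) with group means (bars). RM points lie highest for DTR1 (5.13 to 5.62), DIT1 and SPS4, while CR points lie lowest for SPR3 and DIT1 and highest for SPR28.

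Of 36 other spore formation genes, 7 were higher and 4 lower in CR than in NR, with a list median of 0.18. That is 30.6% of the list, below the 37.8% of all probe sets. SMA2, needed for the prospore membrane, was 2.34 higher, RRT8, a lipid droplet protein of the spore wall pathway, 1.95 higher and MIP6, an RNA-binding protein, 1.64 higher. On the lower side were MPC54, another plaque protein beside Spo21 and Spo74, at -2.07, the phosphatase subunit GIP1 at -1.43 and the chitin deacetylase CDA2 at -1.31. In RM over NR, 5 were higher and 2 lower, 19.4% of the list beside 8.64% of all probe sets, with a median of 0.11. LDS2, a lipid droplet protein, was 1.84 higher, SMA2 1.76 and RRT8 1.55, while GIP1 stood at -1.14 and the Smk1 activator SSP2 at -1.0. Between CR and RM, SPO71, a prospore membrane protein, was 1.77 higher in CR and SPS22, a spore wall gene, was 1.91 higher in RM. They were among 4 genes called in each direction, 22.2% of the list beside 26.1% of all probe sets.

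Of the 42 genes, 25 were called in at least 1 comparison and 17 in none. The share of all probe sets called in at least 1 comparison was not computed. Called in all 3 were HFM1, DIT1 and DTR1. Many of the probe sets were dim: 29 of 42 had a mean signal among the lowest 25% of all probe sets. Among the other 13, which were IME1, IME2, UME6, RIM4, RIM11, PHO92, CST9, MSH4, MSH5, DMC1, REC107, SPS4 and SPS100, 6 were called for CR against NR, 4 for RM against NR and 6 for CR against RM in a fit without the dim probe sets, where 38.5%, 7.95% and 27.7% of the probe sets kept were called.

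With no fold limit, 28 of the 42 genes passed an adjusted p of 0.05 in CR over NR, 15 higher and 13 lower, where 68.9% of all probe sets passed, 35.2% higher and 33.8% lower. In RM over NR 12 genes were higher and 5 lower, where 37.1% passed, 17.6% higher and 19.5% lower. In CR over RM 13 were higher and 16 lower, where 56.2% passed, 29.5% higher and 26.7% lower. By fold and p in the authors' deposited table, 20 genes were called in CR over NR (11 higher, 9 lower), where 36.5% of all probe sets were called, 17.5% higher and 18.9% lower. The authors' deposited table called 8 higher and 2 lower in RM over NR, where 7.68% were called, 3.83% higher and 3.85% lower. It called 7 in each direction in CR over RM, where 24.9% were called in the authors' deposited table, 12.5% higher and 12.4% lower.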

How the data were processed

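Signal was measured on 9 Affymetrix Yeast 2.0 arrays, 3 per group, from 100 ng of total RNA. The deposited log2 values per probe set were made by the authors with RMA and Transcriptome Analysis Console 2.0, per the submitters' processing notes, which do not give the role of each. The authors' deposited table gives a signed linear fold and a p-value per comparison. Differences of group means in the log2 table equal the log2 of these deposited folds within 1e-08 for all 5716 probe sets. The number of arrays limits the precision. Scanner files, and so background correction, were not used here.

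A limma model (version 3.58.1, R 4.3.3) was fitted over all probe sets and arrays with group as the only term, and p-values were adjusted by Benjamini-Hochberg over 5716 probe sets in each comparison. On simulated data for RM over NR with 5716 probe sets, the call recovered 43% of 100 changes of 2-fold and 98% of 100 changes of 4-fold. The simulated 2-fold changes lay at the call limit itself, so the 43% does not measure sensitivity to changes past it. The simulated noise had the same spread in every group for a probe set, unlike the data. Gene names came from RefSeq (assembly R64) by locus tag. Set numbers were not used to pair the arrays in this model. Deviations from the group mean correlated between -0.20 and 0.35 for arrays of the same set, highest for NR replicate 3 with RM replicate 3. Arrays of different sets were not compared in this way, so whether a set shares variation was not tested.

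All 42 genes could be named. Values on every array are given for genes called in a comparison and for the 8 regulators, and from other lists the 3 largest changes in each direction. Members and lists were chosen with earlier results of these data known. Promoter and protein sequences were not used here.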

Additional observations from a re-analysis of the deposited data

How the results depend on the processing

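The replicate block changed no call of the 42 genes, which numbered 22 for low glucose, 10 for rapamycin and 17 for the direct comparison both with and without it. Of the single-gene values under other settings, 1997 kept their side of the threshold, 40 lost a call, 18 gained one and 0 of the called values changed sign. Leaving out 1 array at a time gave 21 to 23 calls for CR against NR (11 to 13 higher, 10 to 12 lower), 7 to 12 for RM against NR (5 to 9 higher, 0 to 5 lower) and 13 to 17 for CR against RM (6 to 8 higher, 7 to 9 lower). The share of all probe sets called moved too, from 34.2% to 41.9%, from 6.63% to 13.8% and from 24.4% to 27.0%. The 12 calls for RM against NR came without NR replicate 1, where that share was 13.8%. Without NR replicate 3, RM over NR had 5 higher and 5 lower, where 3.08% of all probe sets were higher and 3.55% lower. Without RM replicate 2 it had 7 higher and 0 lower, where 3.57% were higher and 3.25% lower. Where an arm kept 2 arrays, the spread was pooled over groups. Without the lowest 25% of probe sets, 13 members were left, with 6 calls for CR against NR (4 higher, 2 lower), 4 for RM against NR (4 higher, 0 lower) and 6 for CR against RM (2 higher, 4 lower), since fewer genes were tested. A 3-fold limit gave 12 (6 higher, 6 lower), 4 (4 higher, 0 lower) and 10 (3 higher, 7 lower), where 17.7%, 1.57% and 9.43% of all probe sets were called. With no fold limit there were 28 calls for CR against NR, 17 for RM against NR (12 higher, 5 lower) and 29 for CR against RM (13 higher, 16 lower). At 1.5-fold, 5 were lower for RM against NR and 14 for CR against RM, where 13.5% and 22.5% of all probe sets were lower. The lower genes in RM over NR numbered 1 after quantile normalization, where 4.16% of all probe sets were lower. They also numbered 1 with only the arrays of the 2 groups compared, a fit added after the data were seen, where 3.5% were lower. Probe sets near background limit small folds of dim genes most.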

Other observations

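Many of the genes that changed under low glucose had a changed neighbour. In the RefSeq gene order, 15 of the 22 meiosis and sporulation genes called in CR over NR (68.2%) had a directly adjacent measured gene called in the same direction, beside 45.4% of all 2134 called genes placed in that order. In CR over RM the count was 11 of 17 (64.7%), beside 34.6% of 1466, and in RM over NR it was 1 of 10 (10.0%), beside 18.9% of 488. These shares are a description without a test, and whether a neighbour's transcription bears on a member's signal was not tested.

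HOP2 lies tail to tail with AGA2, a mating agglutinin gene, and the pair stood at -4.42 and -3.23 in CR over NR. IME1 is transcribed away from RPL43B, a ribosomal protein gene, and these stood at -1.53 and -2.82. SSP1 follows GND1, an enzyme of the pentose phosphate pathway, in the same orientation. SSP1 was -1.98 in CR over NR and -1.53 in RM over NR, and GND1 was -3.26 and -1.53. UME6 and the adjacent kinase gene MSS4 were both higher in CR than in NR, at 1.49 and 1.39. PHO92, raised by rapamycin, had no adjacent gene called in the same direction in RM over NR, and neither had DTR1, MSH4 or SPS4. These pairs were named after their values were seen.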
